A study of Rattus norvegicus with 6 samples.

Results

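The transcripts of insulin, islet amyloid polypeptide and other peptides that beta cells make were followed in beta cells taken from fed and fasted rats. A probe set, the group of short probes that together measure 1 transcript, was taken where its annotation gave a single gene symbol equal to Ins1, Ins2, Iapp, Npy, Nucb2, Igf2, Adcyap1 or Ucn3. Of these 8 genes, 7 had at least 1 such probe set, which gave 11 probe sets of the 31042 tested (20826 of them with 1 symbol, from 14217 genes). For Ucn3 no probe set met the rule and it was not analysed here. Pancreatic beta cells of male Wistar rats, 10 weeks old, were purified by fluorescence-activated cell sorting and frozen without culture. The fed group held controls and the fasted group held rats killed after 24 h without food. Each group consisted of 3 isolates, each a pool of cells from 5 rats, with 1 array per isolate. The labels name no engineered allele and no agent for either group.

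Beta cells store insulin in dense granules and release it when glucose rises. The rat has 2 insulin genes, Ins1 and Ins2, whose products are nearly identical, and IAPP (amylin) is stored and released with insulin. Neuropeptide Y, PACAP (from Adcyap1) and nesfatin-1 (cut from nucleobindin 2, the product of Nucb2) are peptides with roles in appetite or in insulin release, and Igf2 encodes a growth factor of the insulin family. In general, fasting lowers blood glucose, the main stimulus of insulin secretion and of insulin gene transcription.

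The sequences just before the transcription starts of Ins1, Ins2 and Iapp are shown because these 3 genes gave signals near the top of every array, and insulin and IAPP share regulators. Each is 250 bases long, from RefSeq on build GRCr8, read 5′ to 3′ on the strand of the gene. They lie at chr1:261185869-261186118 on the plus strand for Ins1, chr1:207273806-207274055 on the minus strand for Ins2 and chr4:176967847-176968096 on the plus strand for Iapp. Capitals mark 3 motifs searched on both strands, namely TAAT (the core of A boxes, which homeodomain factors such as PDX1 bind), GCCATCTG (the insulin E box, bound by NEUROD1 with its partners) and TGACG (the core of the cAMP response element). Matches of TAAT and of its reverse ATTA can overlap, as in TAATTA.
Ins1: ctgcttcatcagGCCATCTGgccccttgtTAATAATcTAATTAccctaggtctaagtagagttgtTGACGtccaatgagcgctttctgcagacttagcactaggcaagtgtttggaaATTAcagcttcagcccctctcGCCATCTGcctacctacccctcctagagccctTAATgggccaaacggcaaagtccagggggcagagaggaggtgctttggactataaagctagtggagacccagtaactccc
Ins2: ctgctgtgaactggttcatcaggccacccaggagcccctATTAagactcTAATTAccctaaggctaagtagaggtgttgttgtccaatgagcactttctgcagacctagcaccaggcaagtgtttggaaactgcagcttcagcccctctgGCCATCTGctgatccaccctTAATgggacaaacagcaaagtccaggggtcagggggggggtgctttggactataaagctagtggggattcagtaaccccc
Iapp: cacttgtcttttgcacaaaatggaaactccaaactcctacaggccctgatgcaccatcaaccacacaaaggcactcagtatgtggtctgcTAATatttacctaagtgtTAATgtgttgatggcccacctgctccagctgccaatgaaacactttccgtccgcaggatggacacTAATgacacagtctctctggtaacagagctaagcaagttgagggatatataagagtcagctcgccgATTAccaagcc

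The upstream region of Ins1 held 6 matches of TAAT, 2 of GCCATCTG and 1 of TGACG. That of Ins2 held 4 matches of TAAT and 1 of GCCATCTG, and that of Iapp held 4 of TAAT alone. Of 33469 rat upstream regions of the same length, 57% held TAAT, 0.998% held GCCATCTG and 18.2% held TGACG. Aligned end to end, the Ins1 and Ins2 regions were identical at 209 of 263 columns (79.5%), against 51.3% for Ins1 with Iapp and 51.5% for Ins2 with Iapp. A match is a run of letters and not a measured binding site.

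Values are array intensities on a linear scale, as the authors normalised them, and the change is the log2 ratio of fasted over fed from limma. A probe set was called at a difference of at least 1.5-fold and an unadjusted p under 0.05. Over all 31042 probe sets the median change was -0.20, or -0.02 after quantile normalisation and 0.01 after scaling the arrays to 1 shared 75th percentile. By this rule 8.43% of all probe sets were called lower in fasted cells and 2.37% higher, and no probe set reached an adjusted p under 0.05 (smallest 0.155; 0 to 124 probe sets under the alternatives for the fit). At an unadjusted p under 0.05 alone, 3612 (11.6%) were lower and 1010 (3.25%) higher. Of the beta cell markers listed, 7 of 9 were measured and none was called, with summed intensities of 23603 to 24768 in fed and 22725 to 24166 in fasted cells. Ins1, Ins2, Iapp and the glucose transporter Slc2a2 were among the bright ones. The sums include Ins1, Ins2 and Iapp, which are members themselves and lie near the top of the arrays. They are therefore no separate measure of beta cell content. The dimmer markers Mafa (-0.34) and Pdx1 (0.53) were not called. Digestive enzyme transcripts of acinar cells were bright as well (11 of 12 listed genes measured), with 9 near the top of the arrays. Their sums were 59811 to 64232 in fed and 55000 to 64211 in fasted cells. In the paper's quantitative PCR of sorted rat beta cells, Ctrb1 lay far below Ins2, while their fed array means were 5683 and 5784. The sums therefore do not rank acinar and beta cell transcripts by amount.

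Among the 11 probe sets of peptide genes, Nucb2 was called lower (1 of 11, against the 8.43% of all probe sets) and Npy was called higher (1 of 11, against 2.37%). The other 9 were not called, and their p-values do not show that they were equal. In 3 of 11, Nucb2, Iapp and 1 Adcyap1 probe set, all fasted arrays lay below all fed arrays, as in 17.6% of all probe sets. In 0 of 11 did all fasted arrays lie above all fed ones (5.24% of all). The median change of the 11 was -0.08.

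**Figure D1:**
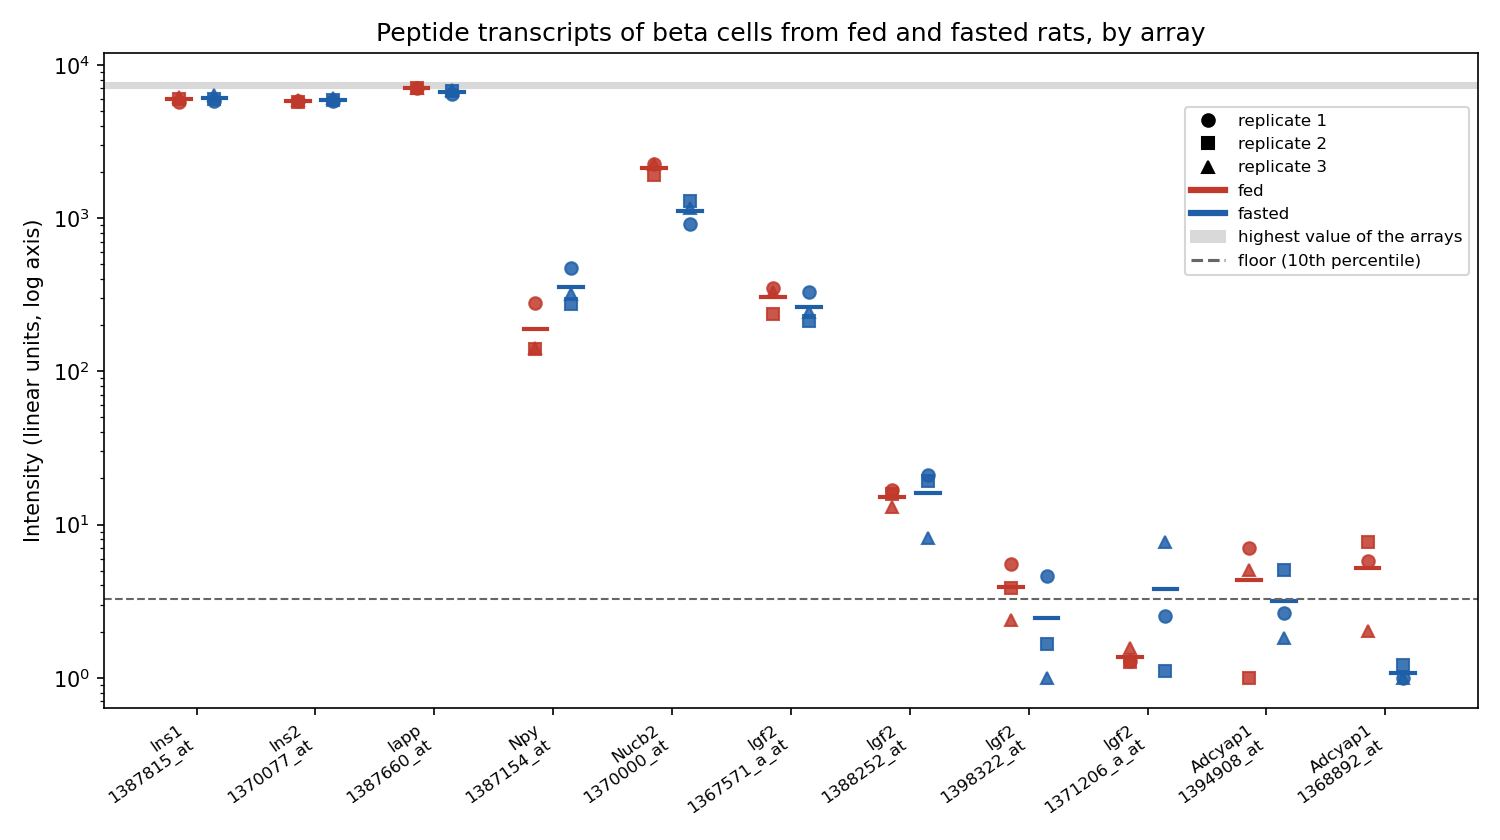
Intensity (linear units on a log axis) of each of the 11 probe sets on each array, red for fed and blue for fasted, with symbols for the replicate number and short lines for the group means. Ins1, Ins2 and Iapp lie just under the grey band of the highest array values, the Nucb2 arrays separate by group, the Npy means lie in the opposite direction with 1 overlapping fed array, and the last 4 probe sets lie around the floor of 3.27 (dashed).

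Ins1 and Ins2 encode proinsulin. Ins1 (1387815_at) read 5719, 5958 and 6200 on the fed arrays and 5783, 6012 and 6299 on the fasted arrays. Both groups covered a similar range, and the fed mean was 5959 ± 240 and the fasted mean 6031 ± 259 (SD, n = 3 each). The log2 change was 0.02 (SE 0.07, 95% interval -0.15 to 0.19, adjusted p = 0.917). On the fold scale the interval ran from 0.899 to 1.14. Leaving out fed replicate 1 or fasted replicate 3 turned its sign, to -0.01 in both cases.

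Ins2 (1370077_at) gave a similar picture. It read 5795, 5686 and 5872 on the fed arrays and 5783, 5857 and 6053 on the fasted arrays. The groups overlapped, with means of 5784 ± 93.5 and 5898 ± 139 (SD, n = 3 each). The log2 change was 0.03 (SE 0.06, 95% interval -0.12 to 0.18, adjusted p = 0.832), or 0.92 to 1.13 as a fold interval. After scaling to the 75th percentile the changes were 0.26 for Ins1 and 0.27 for Ins2, neither of them called. Because the 2 messages are nearly identical, RNA of 1 gene can bind probes of the other, and the split between Ins1 and Ins2 is uncertain. The paper's marker list names both insulin genes for the probe set given here as Ins1. In a bulk preparation, fewer cells of a type and less RNA per cell cannot be told apart.

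Iapp (1387660_at), which encodes the hormone stored with insulin, read 7078, 6998 and 7072 on the fed arrays. The fasted arrays read 6451, 6736 and 6829. All 3 fasted values were under the lowest fed value, by a small step. The fed mean was 7050 ± 44.4 and the fasted mean 6672 ± 197 (SD, n = 3 each). The log2 change of -0.08 (SE 0.06, 95% interval -0.23 to 0.07, adjusted p = 0.535) was not called, and it turned to 0.16 after scaling to the 75th percentile.

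All 3 were marked as near the highest value, meaning above 50% of the highest intensity of the array on every array. The highest value of an array, control probe sets left out, was 7125 to 7629 in the fed and 7000 to 7367 in the fasted group. Ins1 stood at 78.1 to 85.5% of it, Ins2 at 74.5 to 82.6% and Iapp at 91.7 to 99.4%. Across the 30 probe sets so marked the median change was -0.01 with an SD of 0.10, and 0 of 30 differed by 1.5-fold. Of all 31042 tested, 9483 differed by 1.5-fold, with an SD of 0.57. The range of the 30 ran from -0.35 for Gnas, the stimulatory G protein subunit, to 0.06. Of the 373 other probe sets with a mean above 1000, which did not carry the mark, 28 differed by 1.5-fold and the SD was 0.27. Under a stricter mark of 75% the set fell to 13, with Ins1 and Iapp inside and Ins2 just outside, and Iapp had the lowest change of the 13. Whether differences in RNA were compressed at this end of the scale was not tested.

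**Figure D2:**
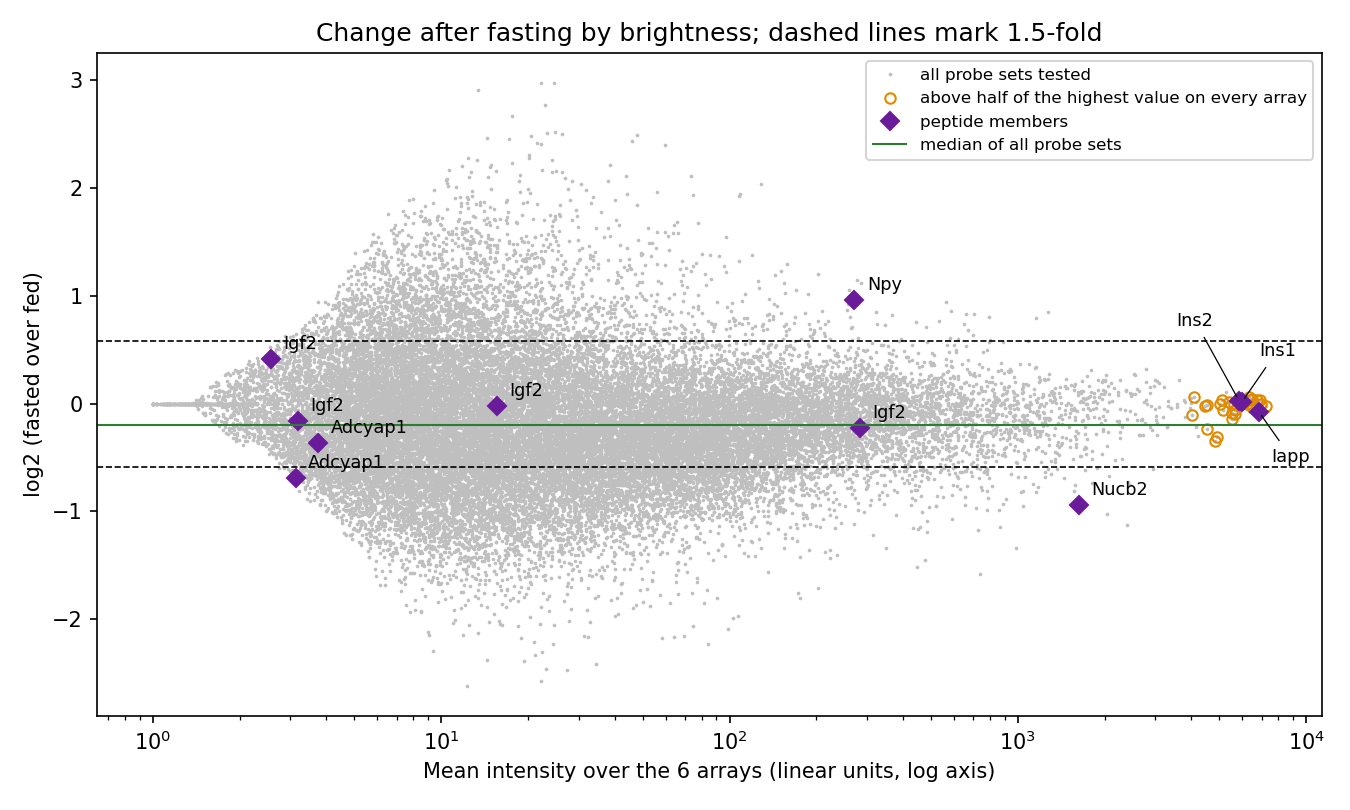
Log2 change of every probe set tested (grey) against its mean intensity over the 6 arrays (log axis), with the peptide probe sets in purple and the 30 near the highest value ringed in orange. Ins1, Ins2 and Iapp sit within the narrow ringed group, while Npy at 0.96 and Nucb2 at -0.94 lie outside the dashed lines of 1.5-fold, as does 1 dim Adcyap1 probe set at -0.69. The green line is the median of all probe sets, -0.20.

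Nucb2 (1370000_at), the gene of nucleobindin 2, a calcium-binding protein of the secretory pathway and the precursor of nesfatin-1, was lower in fasted cells. It read 2245, 1906 and 2245 on the fed arrays and 910, 1282 and 1161 on the fasted arrays. Every fasted array was well under every fed array. The mean fell from 2132 ± 195 to 1117 ± 190 (SD, n = 3 each). The log2 change was -0.94 (SE 0.15, 95% interval -1.30 to -0.59), which is 0.520 of the fed level when turned back from log2 to a ratio. The unadjusted p of 0.000559 from limma was the 106th smallest of all probe sets, and the adjusted p was 0.164. The call held under 16 of 16 alternatives, with changes of -1.05 to -0.70 and unadjusted p-values of 1.63e-05 to 0.004. Set against the median of all probe sets, its change was -0.74. Its paralogue Nucb1, one of the listed peptide genes, was at 498 ± 8.48 in fed and 351 ± 44.3 in fasted cells (SD, n = 3 each), a change of -0.52 that is under 1.5-fold and was not called.

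Npy (1387154_at), the gene of neuropeptide Y, which can inhibit insulin release, was higher in fasted cells. It read 280, 140 and 142 on the fed arrays and 473, 273 and 317 on the fasted arrays. The groups overlapped, since fed replicate 1 was above fasted replicate 2. The mean was 187 ± 80.3 in fed and 354 ± 105 in fasted cells (SD, n = 3 each). The log2 change was 0.96 (SE 0.33), which is 1.94-fold with a 95% interval of 1.11 to 3.41. The unadjusted p from limma was 0.0271 and the adjusted p 0.290. The call was lost under 6 of 16 alternatives. Those were a test of each probe set alone on linear values, array weights (unadjusted limma p of 0.084) and 4 fits that left out 1 array. The p was 0.0946 without fed replicate 2, 0.093 without fed replicate 3, 0.087 without fasted replicate 1 and 0.0595 without fasted replicate 3. The change was positive under each of the 16.

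Markers of other cell types were set beside these 2 results. Gcg, the glucagon gene of alpha cells, read 4426, 7629 and 3532 on the fed and 4958, 5769 and 5261 on the fasted arrays. Gcg was highest on fed replicate 2, where it was the highest value of that array, and lowest on fed replicate 3. Npy read 140 and 142 on these arrays, and the part of alpha cells in its result was not tested. The 3 measured alpha cell markers of 5 summed to 3561 to 7770 in fed and 5051 to 5834 in fasted cells. Of the duct cell markers (4 of 5 measured), Krt19 was called higher, from 53.0 ± 5.71 to 85.7 ± 4.72 (SD, n = 3 each, log2 change 0.70, adjusted p = 0.192). Its groups did not overlap, and the call held under 16 of 16 alternatives. The sums of the 4 were 353 to 403 in fed and 430 to 536 in fasted cells. Krt7, another duct marker (0.37), and Acta2, a marker of stellate cells and fibroblasts (0.50), were higher on all fasted arrays but under 1.5-fold. Other markers went the other way, with Cftr (-0.25) as 1 of the 4 duct genes. So did 2 of the 6 stellate and fibroblast genes, Col3a1 (-0.56) and Dcn (-0.78), all with overlapping groups. The median of these 6 was 0.07, and their sums were 209 to 457 in fed and 279 to 345 in fasted cells. Krt7 was called higher after 75th percentile scaling (0.61), and Acta2 after quantile normalisation (0.69) and after 75th percentile scaling (0.75). The part of duct and stellate cells in the Npy and Nucb2 results was not tested. On the deposited scale none of the listed markers of endothelial cells (4 of 5 measured), stellate cells and fibroblasts (6 of 6), leukocytes (6 of 6), erythroid cells (2 of 4), Schwann cells (2 of 4), delta cells (2 of 2) or PP cells (1 of 1) was called.

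**Figure D3:**
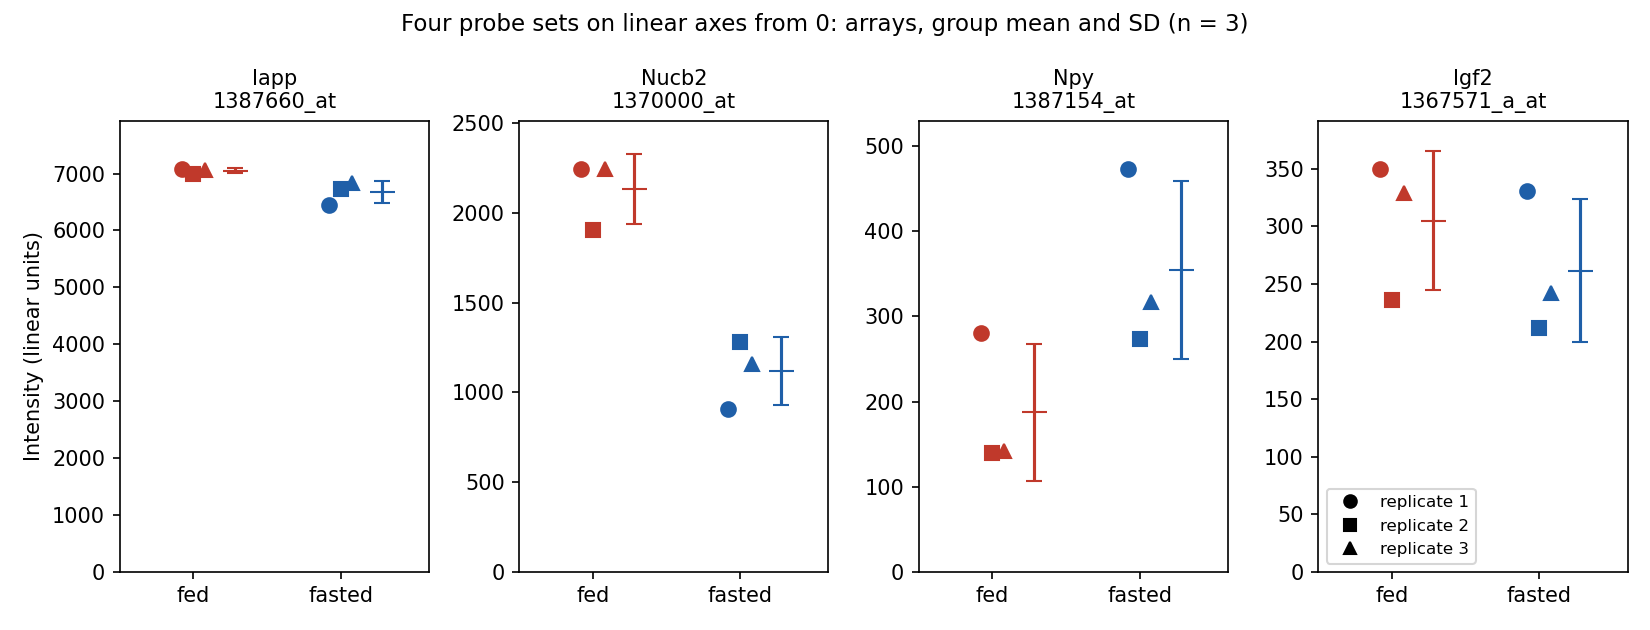
Intensity of Iapp, Nucb2, Npy and the brightest Igf2 probe set on each array, on linear axes from 0, with the group mean and SD (n = 3) beside the points. Nucb2 separates fed from fasted arrays by a wide gap, Iapp by a narrow one, and the Npy and Igf2 groups overlap.

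Igf2, which encodes insulin-like growth factor 2, had 4 probe sets that differed widely in brightness. The brightest (1367571_a_at) read 350, 236 and 329 on the fed and 331, 211 and 242 on the fasted arrays. Replicate 1 was the highest and replicate 2 the lowest of both groups. The mean was 305 ± 60.6 in fed and 262 ± 61.8 in fasted cells (SD, n = 3 each), a log2 change of -0.23 (SE 0.22, adjusted p = 0.605) that overlapped and turned to 0.02 after scaling to the 75th percentile. In the GRCr8 gene table Igf2 and Ins2 are close neighbours, with 1 protein-coding gene listed between them.

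The other 3 Igf2 probe sets were designed from a different sequence record and were dim. Probe set 1388252_at read 16.8, 15.9 and 12.9 in fed and 20.9, 19.2 and 8.11 in fasted cells. Probe set 1398322_at read 5.55, 3.84 and 2.38 in fed and 4.64, 1.67 and 1.00 in fasted cells, with 3 of 6 arrays at or under the floor. Probe set 1371206_a_at was at or under the floor on 5 of 6 arrays and read 7.69 on fasted replicate 3 alone above it. Their log2 changes were -0.03, -0.16 and 0.41, and none was called. The sign of the first 2 depended on the setting.

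Adcyap1 encodes PACAP, a neuropeptide that raises cAMP in beta cells, and both of its probe sets lay near the floor of 3.27. Probe set 1394908_at read 6.98, 1.00 and 5.04 in fed and 2.63, 5.03 and 1.82 in fasted cells, which overlapped. Probe set 1368892_at read 5.81, 7.73 and 2.02 in fed and 1.00, 1.22 and 1.00 in fasted cells, so that all fasted arrays were under the fed ones. Its change of -0.69 (SE 0.32, adjusted p = 0.363) was not called, with 4 of 6 arrays at or under the floor. It was called when a pseudocount replaced the floor (-0.90, unadjusted limma p of 0.0182) and without fed replicate 3 (-1.04, unadjusted limma p of 0.0023).

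**Figure D4:**
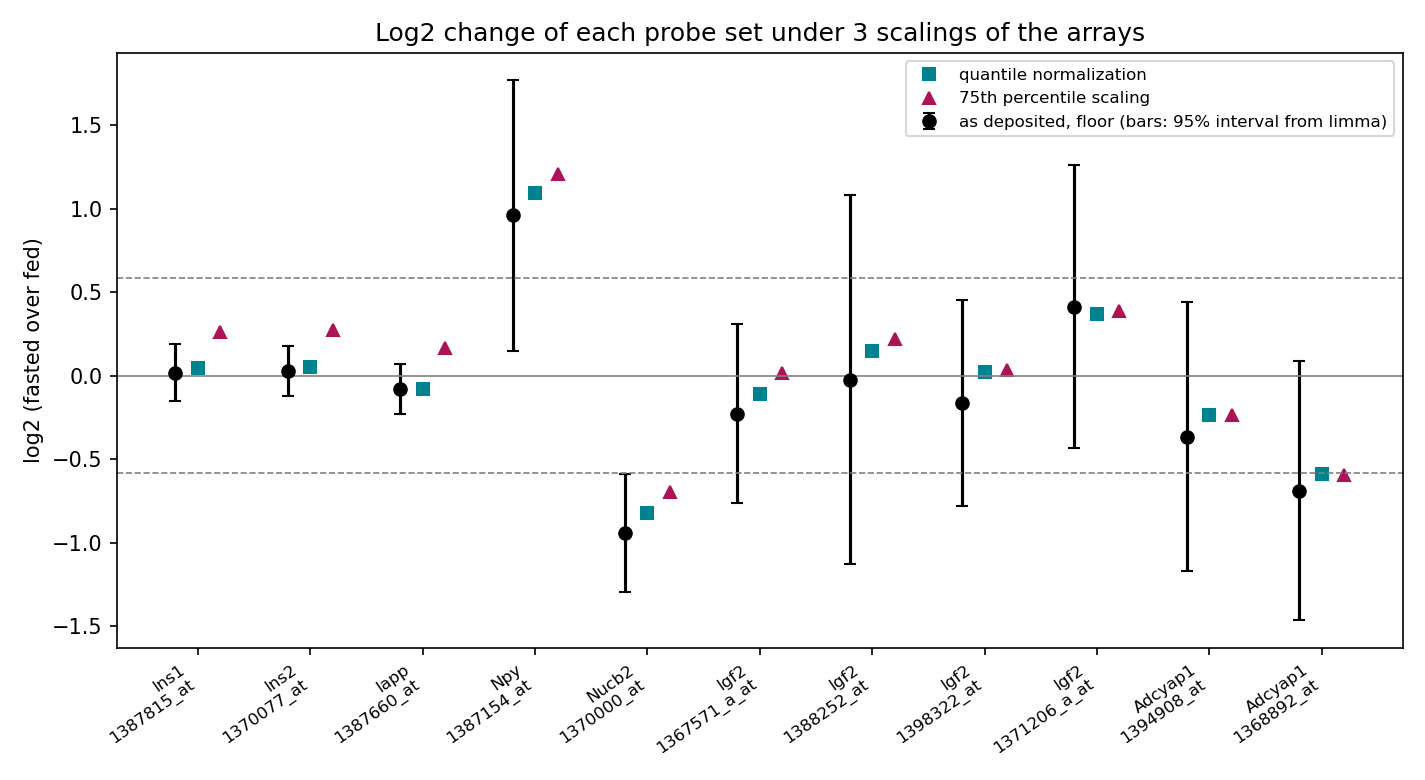
Log2 change of each probe set as deposited (black, bars for the 95% interval from limma), after quantile normalisation (teal squares) and after scaling to the 75th percentile (magenta triangles), with dashed lines at 1.5-fold. Nucb2 stays below and Npy above these lines under all 3, while Iapp moves from -0.08 to 0.16.

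For the probe sets not near the top, the genes with the most similar values over the 6 arrays were looked up among 12180 probe sets of 1 symbol brighter than the median probe set. The closest to Nucb2 were Saraf, a regulator of store-operated calcium entry (Pearson r = 0.9989), and Ddx1, an RNA helicase (r = 0.9985), and 399 probe sets had an r above 0.95. The closest to Npy were Aars1, the alanyl-tRNA synthetase (r = 0.9805), and Myorg (r = 0.9741), with 9 probe sets above 0.95. For the brightest Igf2 probe set they were Pcbp3 (r = 0.9966) and F8a1 (r = 0.985). For the brightest Adcyap1 probe set, which is near the floor, they were Cadps2 (r = 0.9797) and Mgat1 (r = 0.978). All pairs share the same 6 arrays and their scaling, so the r values are descriptions.

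Genes around the peptides were counted from lists, each gene by its brightest probe set. They are to be read against the 8.43% lower and 2.37% higher of all probe sets and the median of -0.20. That yardstick includes dim probe sets, whereas 11 of 13 processing, 12 of 13 granin and 20 of 22 factor genes were brighter than the median probe set. The 15520 probe sets brighter than the median, fitted alone, gave 1968 lower and 379 higher, with a median of -0.24. Of the 5 other islet hormones (Gcg, Ppy, Pyy, Sst and Ghrl) 0 were called, and their median was -0.04. Ghrl, the ghrelin gene, changed by -1.25 (SE 0.59, adjusted p = 0.370) with overlapping groups, and the values for Pyy (-0.21), Ppy (0.19) and Sst (-0.04) overlapped as well. Of other peptide hormones and neuropeptides, 54 of 65 were measured, of which 3 were lower and 1 was higher, and the median was -0.02. Cartpt, the gene of the CART peptide, read 239, 240 and 184 in fed and 63.8, 115 and 131 in fasted cells, without overlap. Its change was -1.15 (SE 0.29, adjusted p = 0.224), and the call held under 16 of 16 alternatives. The other 3 called, Nppb (-0.99), Agt (-2.03) and Oxt (1.04), were dimmer than the median probe set, and each lost its call under at least 2 alternatives. Both other scalings gave 3 lower and 3 higher, with Trh and Ucn added to the higher ones.

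Of the prohormone processing genes, 13 of 14 were measured, of which 1 was lower and none higher, and the median was -0.15. The 1 called was the convertase gene Pcsk5 (-1.55), from 31.7 ± 6.94 to 11.5 ± 4.67 (SD, n = 3 each), and its call was lost without fed replicate 2. Pcsk2, the convertase that cleaves proinsulin with PC1/3, changed by -0.29 (SE 0.10, adjusted p = 0.294), and the protease gene Ctsl by 0.30 (SE 0.09, adjusted p = 0.264), both without overlap and neither called. Pcsk1, the gene of PC1/3, was not among the 13 measured. Cpe, the carboxypeptidase that trims insulin, was near the highest value, with a change of 0.01, and Pam, the amidating enzyme that IAPP and NPY need, changed by -0.15.

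The list of granins and granule content also held Ero1b, Erp27 and Pdia2, which encode folding proteins of the endoplasmic reticulum. Of its 15 genes 13 were measured, of which 1 was lower and none higher. All 13 changes were negative, as were those of 20307 of the 31042 probe sets tested. The median was -0.39, or -0.24 after quantile normalisation and -0.14 after scaling to the 75th percentile. Ero1b (-0.52), Erp27 (-0.46) and Pdia2 (-0.66) enter this median, and it was not computed without them. Ptprn, which encodes the granule membrane protein IA-2, read 1528, 1172 and 1518 in fed and 450, 548 and 681 in fasted cells. No fasted array came near the fed ones, and the change was -1.34 (SE 0.18, adjusted p = 0.155), called under 16 of 16 alternatives. Chga, the chromogranin A gene (-0.51), and Ero1b, an oxidase of proinsulin folding (-0.52), did not overlap between groups but were under 1.5-fold. Scg3 changed by -0.22.

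Of receptors of these peptides and their partners, 15 of 19 were measured, of which 2 were lower and none higher, and the median was -0.05. Vipr2, a receptor of PACAP and VIP, was at 54.9 ± 9.05 in fed and 29.7 ± 8.43 in fasted cells (SD, n = 3 each). Its change was -0.92 (SE 0.29, adjusted p = 0.274), and the call was lost without fed replicate 1 or fed replicate 3. Ramp3, an accessory protein of amylin receptors, was dim (-1.04) and held its call in 6 of 15 alternatives. Ramp2 (-0.83) and Igf2r, the receptor that clears IGF2 (0.53), were not called. Under both other scalings Vipr2 was the 1 receptor gene called lower and Igf2r was called higher (0.69 after quantile normalisation and 0.78 after 75th percentile scaling). Of the IGF axis, 18 of 18 were measured and 0 were called, apart from Igf2r under those scalings, with a median of -0.35. Irs2, the insulin receptor substrate 2 gene, changed by -0.40 (SE 0.14, adjusted p = 0.290), and Igf1 (-1.07) and H19 (-0.89) were dim.

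Of factors of the insulin promoter and the insulin message, 22 of 28 were measured, of which 2 were lower and none higher, and the median was -0.16. Elavl4, the gene of the RNA-binding protein HuD, changed by -0.74 (SE 0.19, adjusted p = 0.230), and its call was lost under quantile normalisation and 75th percentile scaling. Crem, a cAMP response factor gene, changed by -0.76 (SE 0.27, adjusted p = 0.297) and held its call in 8 of 16 alternatives. After quantile normalisation 1 gene of the list was lower (Crem) and 1 higher, Isl1, a homeodomain factor gene (0.78), and after 75th percentile scaling none was lower and Isl1 was higher (0.82). Pax6 (-0.23), Tcf4 (-0.54) and Ptbp1 (-0.44), an RNA-binding protein gene, did not overlap between groups and were under 1.5-fold. The medians of 5 of these 7 lists turned positive under at least 1 of the 2 other scalings, and those of the granule contents and the IGF axis stayed negative under both.

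**Figure D5:**
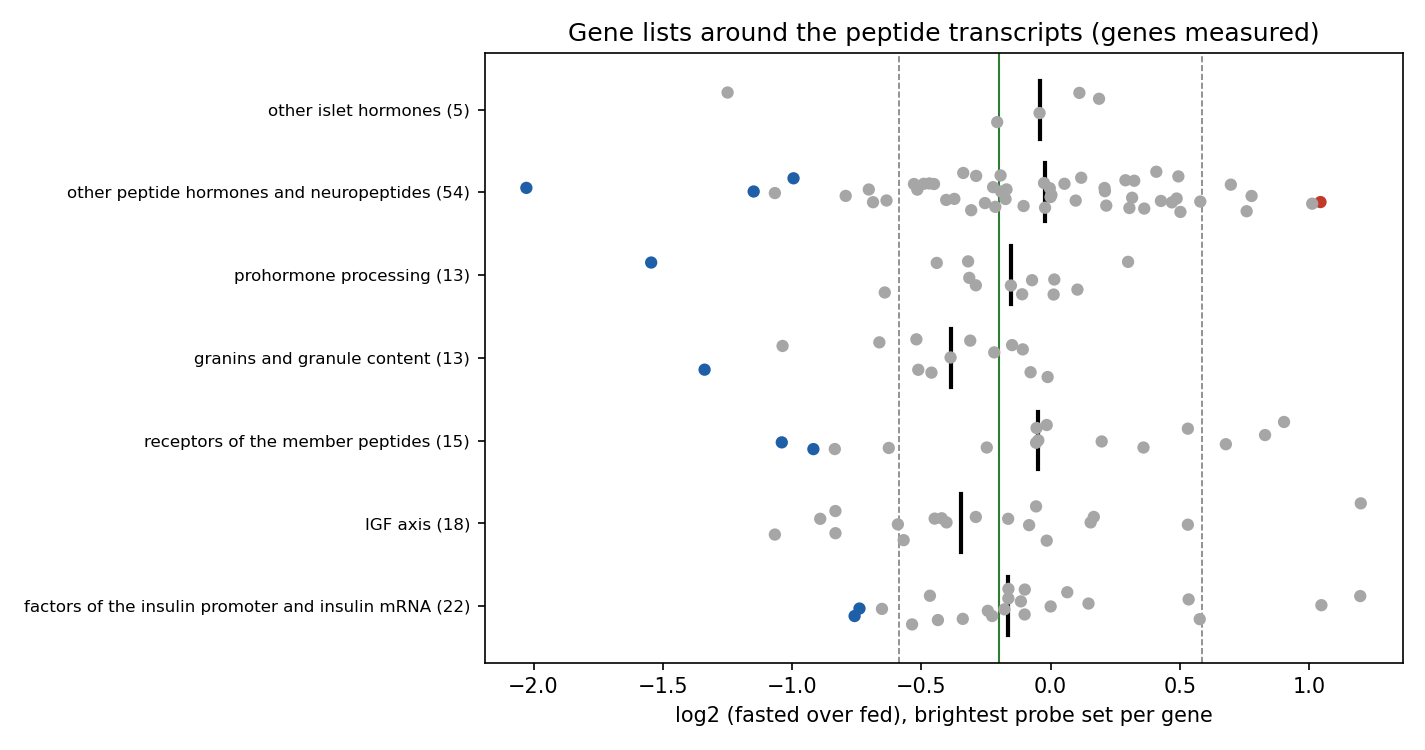
Log2 change of the brightest probe set of each measured gene in the 7 lists, 1 point per gene, with blue for genes called lower, red for genes called higher and grey for genes not called. Black bars are the list medians, the green line is the median of all probe sets (-0.20) and dashed lines mark 1.5-fold. The median of granins and granule content lies farthest to the left, at -0.39. That list also holds Ero1b, Erp27 and Pdia2, genes of protein folding in the endoplasmic reticulum.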

How the data were processed

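Affymetrix rat arrays were hybridised with RNA of sorted beta cells from 3 fed and 3 fasted isolates. The deposited values are linear intensities, which the authors computed with dChip model-based expression after normalisation to the array of median intensity and correction for mismatch hybridisation. No dChip version is given in the sources used here. The study's methods name the RG230A array, whereas the table holds 31042 probe sets besides 57 control probe sets, which were left out. Probe sets were named from the platform annotation, and 7 of 7 member genes matched RefSeq GRCr8 with 0 symbols changed.

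Low values were set to a floor of 3.27, the 10th percentile of the table, log2 was taken, and limma 3.58.1 in R 4.3.3 (lmFit, eBayes with an intensity trend, two-sided) was fitted over all probe sets with Benjamini-Hochberg adjustment. Calls required 1.5-fold and an unadjusted p under 0.05, the thresholds named in the study. With 3 arrays per group an exact permutation test cannot go below p = 0.1, and the number of arrays limits the precision. The fit was tested on simulated data. The alternatives comprised Welch's test on the linear values, a brightness filter, a higher floor (7.53, the 25th percentile), a pseudocount, quantile and 75th percentile scaling, eBayes without trend or with robust variance, array weights (gene by gene), a replicate block, and each array left out. Promoters were aligned with Biopython 1.88.

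Named were all members, the 4 genes per list with the largest absolute moderated t, any called gene, and the 2 most similar genes per member. Cpe (near the highest value) and genes called only under another scaling were added after their values were seen. The members and lists were chosen with earlier results of these data known. Same-numbered arrays of the groups deviated with correlations of -0.0196, 0.0992 and -0.0823 and were not treated as pairs.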

Additional observations from a re-analysis of the deposited data

How the results depend on the processing

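Over 16 alternatives, 149 of 171 values of the peptide probe sets did not turn their sign and kept their side of the thresholds. The others were 6 weaker (all Npy), 2 stronger (both Adcyap1 1368892_at) and 14 reversed. A change of exactly 0 counted among the 149. Such were Igf2 1398322_at and Adcyap1 1394908_at with the 25th percentile floor, and Igf2 1371206_a_at without fasted replicate 3. Nucb2 kept its call in all 16. The counts over all probe sets, 2616 lower and 737 higher in the report, moved to 1625 and 269 with Welch's test on linear values (Npy lost, leaving 0 members higher), 1504 and 1266 after quantile normalisation, 1326 and 1426 after scaling to the 75th percentile, and 4209 and 1302 with array weights (0 members higher). The share of calls that were lower was 78% in the report, 54.3% after quantile normalisation and 48.2% after scaling to the 75th percentile. Probe sets brighter than the median gave 379 higher, a floor at the 25th percentile gave 419 higher, and a pseudocount made 2 members lower. The near-highest mark at 75% kept 13 of 30 probe sets. An adjusted p under 0.05 was reached by 124 probe sets with the brightness filter, 83 with the pseudocount, 88 with robust variance and 1 with the higher floor, and by 0 under the others. The cause of these shifts was not tested.

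Leaving out each array gave 1448 to 5562 lower and 472 to 1536 higher, with 1 to 2 members lower and 0 to 1 higher. Without fed replicate 1 the counts were 1448 and 475, and without fed replicate 3 they were 1775 and 472. The fits without fasted replicate 1, 2 or 3 gave 1690, 1706 or 5562 lower and 540, 629 or 1536 higher. Over these refits Ins1 ran from -0.01451 to 0.04718 and Igf2 1388252_at from -0.2728 to 0.4101, and Igf2 1398322_at from -0.3317 to 0.05237.

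Reversed changes were 0.0831 for Igf2 1388252_at with Welch's test, 0.1459 with quantile normalisation, 0.2191 with 75th percentile scaling and 0.1259 with array weights. Igf2 1398322_at turned to 0.02239 with quantile normalisation and 0.03237 with 75th percentile scaling, which also turned Iapp to 0.1644 and Igf2 1367571_a_at to 0.01726. None of these passed the test.

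The labels number the isolates as biological replicates and do not state whether the same number marks a pair. With the replicate block 2046 probe sets were lower and 644 higher, and 1 member was lower and 1 higher, so the block changed no call of a member. The unadjusted limma p of Npy was 0.000955 with the block and 0.0271 without it.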

Other observations

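Gcg, Ppy and Pyy, transcripts of islet hormones outside beta cells, spread more widely among the fed than the fasted isolates, while Sst did not. The spread was not tested. Ppy, the pancreatic polypeptide gene, read 2567, 4270 and 2057 on the fed and 2997, 3536 and 3143 on the fasted arrays. Pyy, the peptide YY gene, read 752, 1690 and 742 on the fed and 1040, 773 and 763 on the fasted arrays. Both were highest on fed replicate 2, as Gcg was. Sst, the somatostatin gene of delta cells, was at 4003 ± 166 in fed and 3903 ± 449 in fasted cells (SD, n = 3 each).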
